A study of Gallus gallus with 6 samples.

Results

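The transcripts described here are 79 chicken gene IDs that stood at nearly the same level in cultured embryonic stem (ES) cells and in the embryos such cells are derived from. They were chosen by their measured values among the 15900 IDs listed in the files of both groups. An ID was kept when its list of transcripts was the same in both groups' files and its mean transcript length differed by at most 10%. Its mean level also had to reach 100 CPM in each group, where CPM is the expected counts scaled to a total of 1000000 over IDs of both groups' files. The ratio of the group means had to lie between 0.9 and 1.1, and the highest embryo library had to stay under 1.5 times the lowest. The near-equal means are therefore the criterion of choice and not a result.

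RNA sequencing was done on 3 libraries of ES cells at passage 10 and 3 libraries of primary cells from stage X embryos, all of wild-type genotype. At this stage, in the Eyal-Giladi and Kochav series, the freshly laid egg carries a flat blastoderm without a primitive streak. The ES cells were grown at 38 °C on irradiated mouse embryonic fibroblasts with 2.5 µM IWR-1, which lowers WNT signalling through tankyrase, 2 µM Gö6983, a protein kinase C inhibitor, and 2 µM SB431542, an inhibitor of activin and NODAL type I receptors. Chicken LIF and ovotransferrin were each added at 10 ng/ml, and the eggs of both groups had been kept at 16 °C. Whether a group's libraries stem from separate lines, cultures or embryos is not in the labels, and p-values then measure only the spread between these samples, possibly a technical one. RNA of the mouse feeder cells may be part of the ES cell libraries, and this was not tested. The expected counts, which are estimated read counts, summed to 13007413 to 13403975 per ES cell library and 16068898 to 17082488 per embryo library. The shared IDs held 95.8% of the counts in the ES cell libraries and 96.4% to 96.6% in the embryo libraries.

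Transcripts that keep a steady share of the RNA pool while a cell changes state are often products of genes that every cell uses, such as those for translation, splicing, the cytoskeleton and protein turnover. They matter in practice because reference transcripts for relative quantification are picked from them. A steady share is not the same as a steady number of molecules per cell, because sequencing reports each transcript relative to all others. In such bulk samples, fewer cells with a transcript and less of it per cell cannot be told apart either. The files pair no names with the IDs, and 0 of the 79 members occur in the RefSeq gene table used for names, so no gene function is assigned to any member and the cell identity of the libraries could not be checked on marker genes.

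The 79 members were the centre of a single-peaked distribution and had no gap on either side. Of the shared IDs, 1676 had a mean of at least 100 CPM in both groups, and 364 of these also met the limits on transcript list and length. These 364 are called the matched abundant IDs, and the members made up 21.7% of them. Their ratio of ES cells over embryos ran from 0.066 to 5.58, with a median of 0.971, and the middle part from the 25th to the 75th percentile spanned 0.755 to 1.24. A class of the same width on the log scale just below the members, from 0.736 to 0.9, held 71 IDs, and the class just above, from 1.1 to 1.34, held 60.

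**Figure D1:**
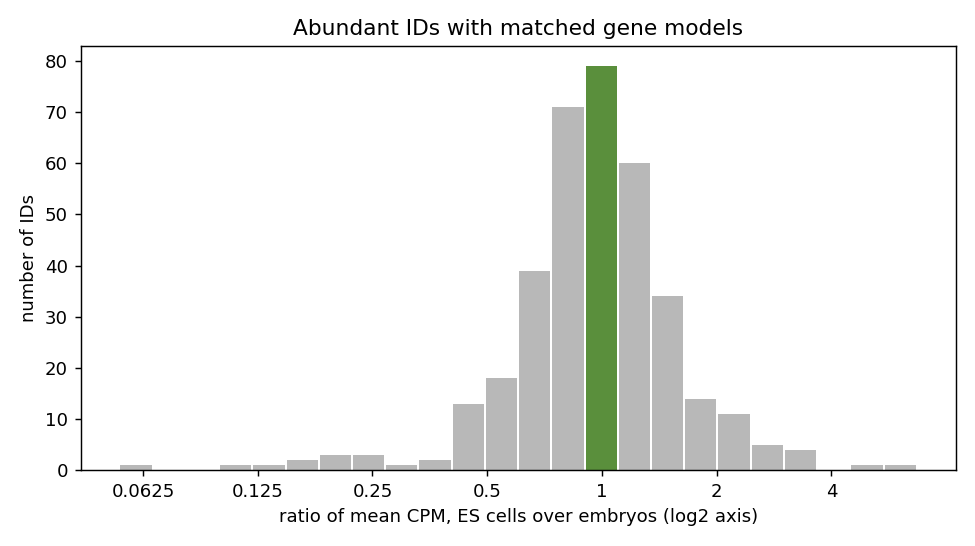
The bars count the 364 matched abundant IDs by the ratio of mean CPM, ES cells over embryos, in classes of equal width on a log2 axis. The green bar is the 79 members between 0.9 and 1.1, next to classes of 71 and 60 IDs.

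The limit on the embryo spread removed 0 IDs, so the ratio window alone separated the members from the other matched abundant IDs. The members nearest to the lower ratio limit stood at 0.906 and 0.908, and the nearest IDs outside it at 0.8998 and 0.8987. At the upper limit the values were 1.098 and 1.098 inside and 1.103 and 1.108 outside. The lowest group means of the 2 members nearest to the limit were 101 CPM each, and the nearest IDs left out by the level stood at 99.7 and 99.5 CPM. The largest length differences inside were 9.82% and 9.64%, against 11.1% and 11.1% just outside. The widest embryo spreads among members were 1.44-fold and 1.39-fold. A further 254 abundant IDs had a ratio in the same window but unlike gene models, 212 through another transcript list and 42 through length. They were 19.4% of the 1312 abundant IDs with unlike models, beside 21.7% of the matched ones.

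The members' mean over all 6 libraries ran from 103 to 637 CPM with a median of 169 CPM, which placed them between rank 169 and rank 2180 of the shared IDs. A mean of 100 to 200 CPM was found for 54 members, 200 to 400 CPM for 18 and more than 400 CPM for 7. Together they held 1.62% ± 0.0063 of the shared counts in ES cells and 1.62% ± 0.055 in embryos (SD, n = 3). By library the share was 1.63%, 1.62% and 1.61% in ES cells and 1.66%, 1.65% and 1.56% in embryos. The third embryo library thus held the lowest share. Counts behind a single member ran from 1244 to 10655 per library, so counting error was small for each of them.

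**Figure D2:**
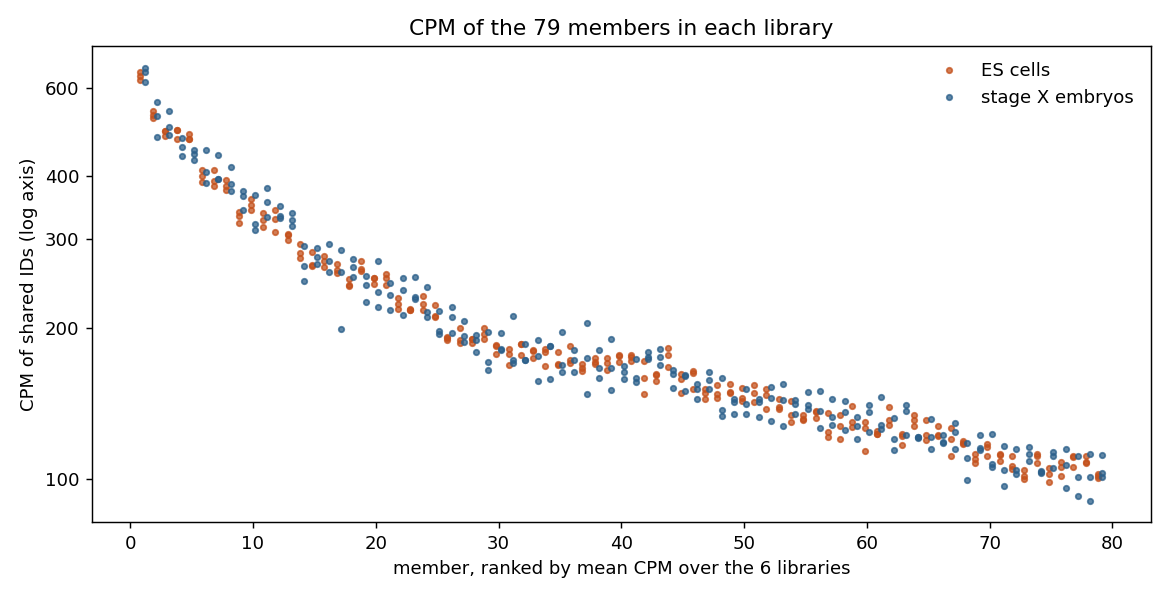
Each column of points is 1 of the 79 members, ranked by mean CPM, with its CPM in the 3 ES cell libraries (orange) and the 3 embryo libraries (blue) on a log axis. The points of both groups run together from 637 to 103 CPM, and the blue points are more scattered than the orange ones.

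The most abundant member was ENSGALG00000036962, with 1 transcript of 3300 bases in the ES cell files and 3503 bases in the embryo files. It stood at 633, 646 and 623 CPM in the ES cell libraries and at 659, 646 and 617 CPM in the embryo libraries. The 2 groups overlapped, and the third library was the lowest in both. The fitted log2 fold change was -0.04, with a 95% interval from -0.14 to 0.05 (edgeR quasi-likelihood fit).

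ENSGALG00000011931 is the most abundant member whose single transcript has the same length, 2262 bases, in both groups' files. Its ES cell values were 522, 539 and 529 CPM and its embryo values 527, 562 and 479 CPM. The ES cell libraries lay inside the embryo range, which ran wider on both sides. The log2 fold change was -0.01, with a 95% interval from -0.12 to 0.11 (edgeR).

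Among the next members, ENSGALG00000015200 with 3 transcripts had 493, 493 and 482 CPM in ES cells and 540, 483 and 501 CPM in embryos. The first embryo library was the high one. ENSGALG00000032642 had 496, 496 and 475 CPM in ES cells and 476, 458 and 440 CPM in embryos. Its lowest ES cell library lay just under its highest embryo library, so the groups met at the edge. ENSGALG00000002447 had 485, 475 and 476 CPM in ES cells and 442, 452 and 432 CPM in embryos. All ES cell libraries lay above all embryo libraries for this ID, at a ratio of 1.08, yet it was not called (log2 fold change 0.08 ± 0.04 SE, edgeR adjusted p = 0.0837). Its direction depended on the scaling. The log2 fold change was 0.11 with library size alone (edgeR adjusted p = 0.0472). With effective length as an offset it was -0.17 (edgeR adjusted p = 0.003).

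The shortest of the 10 most abundant members was ENSGALG00000035299, with a transcript of 913 bases in the ES cell files and 1001 in the embryo files. It stood at 390, 401 and 411 CPM in ES cells and 407, 452 and 388 CPM in embryos. Its second embryo library was the high one, and all ES cell libraries lay inside the embryo range. ENSGALG00000009153 had 391, 382 and 413 CPM in ES cells and 441, 395 and 396 CPM in embryos, so here the first embryo library was the high one. ENSGALG00000032148 had 394, 376 and 382 CPM in ES cells and 374, 418 and 387 CPM in embryos, with its lowest and its highest value both among the embryos. ENSGALG00000002606 had 360, 351 and 343 CPM in ES cells and 367, 322 and 313 CPM in embryos. The embryo libraries again enclosed the ES cell range.

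The member with a ratio closest to 1 was ENSGALG00000011228, with 106, 111 and 105 CPM in ES cells and 104, 115 and 102 CPM in embryos. The second library was the highest in both groups. Even at this ratio of 1.00 the 95% interval of the log2 fold change ran from -0.15 to 0.10 (edgeR), so a difference within that interval cannot be told from none.

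In the fit across all 11614 tested IDs, 85.1% were called changed between ES cells and embryos (quasi-likelihood test of edgeR, p adjusted by Benjamini-Hochberg and under 0.05), with 43.2% lower and 41.9% higher in ES cells. Tested IDs were matched by ID alone, and of the 15900 shared IDs only 5180 met the limits on transcript list and length. Of the 364 matched abundant IDs, members included, 81.6% were called. The part of unlike gene models in the calls was not tested. All 79 members passed the filter on low counts. Of these, 15 were called lower and 0 higher, and nothing is read from this count because the members were chosen on the same contrast. Calls in both directions depended on the scaling, the tool, the filter and single libraries. With library size alone 9 members were called, 6 lower and 3 higher, beside 84.7% of all tested IDs. With limma-voom, 15 were lower and 1 higher, beside 84.9%. Without the filter on low counts, 9 were lower and 1 higher, beside 75.2%. Fitted log2 fold changes of the members ran from -0.17 to 0.11 with a median of -0.03, beside -0.01 for all tested IDs. The 95% interval had a median half-width of 0.12, and over the 79 members the lowest bound was -0.31 and the highest 0.25. Leaving out ES cell library 1, 2 or 3 gave 6, 3 and 4 calls, beside 81.6%, 81.4% and 81.7% of all tested IDs. Leaving out embryo library 1, 2 or 3 gave 18, 30 and 12 calls, beside 84.5%, 85.7% and 83.4%. Of the 30 calls 7 were higher in ES cells, and of the 18 calls 2 were. In these fits the pair of libraries that remained was assumed to vary like the rest.

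Groups did not overlap in CPM for 20 of the members, 13 with ES cells lower and 7 with ES cells higher. Over all tested IDs the groups did not overlap for 86.1%, 42.7% with ES cells lower and 43.4% with ES cells higher. The most abundant of the 15 called members was ENSGALG00000013649, with 2 transcripts. It stood at 339, 333 and 323 CPM in ES cells and 366, 373 and 343 CPM in embryos. All ES cell libraries lay below all embryo libraries, at a ratio of 0.919 (log2 fold change -0.15 ± 0.05 SE, edgeR adjusted p = 0.00749). Without ES cell library 3 the adjusted p was 0.0565. ENSGALG00000011387 had the smallest spread of all members in ES cells, with 218, 217 and 217 CPM, and 252, 230 and 228 CPM in embryos. It was lower in ES cells by 0.15 on the log2 scale (edgeR log2 fold change -0.15 ± 0.05 SE, adjusted p = 0.0107). That call was lost with library size alone and without ES cell library 1 or 2, with adjusted p of 0.0544, 0.0512 and 0.0581.

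Whether the members count as level depends on the unit. In CPM their median ratio of ES cells over embryos was 1.00, and it was 0.982 with TMM factors, 0.966 with DESeq2 size factors and 0.969 with upper quartile factors. In the deposited TPM it was 0.868, and all 79 ratios lay below 1, from 0.750 to 0.987. Only 27 of the 79 stayed between 0.9 and 1.1 in TPM, and 52 lay under 0.9. With effective length as an offset in the fit the median was 0.879 and 31 stayed within the window. On those scales the fit called 49 (limma-trend on log2(TPM + 1)) and 55 (edgeR with the offset) of the members lower and 0 higher. Over all tested IDs the same fits called 82.2% and 84.0%, with 42.2% and 42.7% lower in ES cells. As above, nothing is read from the members' counts.

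The shift was shared with the other matched abundant IDs and was also present where the gene models were alike. The median log2 ratio of the 364 matched abundant IDs went from -0.04 in CPM to -0.25 in TPM, and that of the members from 0.00 to -0.20. Over all 11614 tested IDs the median moved from 0.02 to -0.04. For the 19 members whose only transcript had the same ID and length in both groups, the median ratio was 0.989 in CPM and 0.848 in TPM, and 19 of 19 lay below 1 in TPM. ENSGALG00000011931, one of the 19, had 297, 304 and 295 TPM in ES cells and 355, 371 and 307 TPM in embryos, a ratio of 0.868 against 1.01 in CPM. The conversion between the units differed between the groups: 1 CPM corresponded to 1.15 ± 0.012 TPM for an effective length of 1 kilobase in ES cells and 1.35 ± 0.035 in embryos (SD, n = 3). By arithmetic, an ID with equal CPM and equal length is then 14.3% lower in TPM in ES cells. TPM is scaled to a fixed sum over all gene models of a file. The length offset, fitted over tested shared IDs without that sum, gave the members a median ratio of 0.879. For the 19 members of equal length its median ratio was 0.857. The offset uses the same deposited effective lengths, so it is not a separate check on TPM. Which of a file's IDs or models set the conversion was not tested. When the rule was applied to TPM it found 46 IDs, of which 13 were among the 79.

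**Figure D3:**
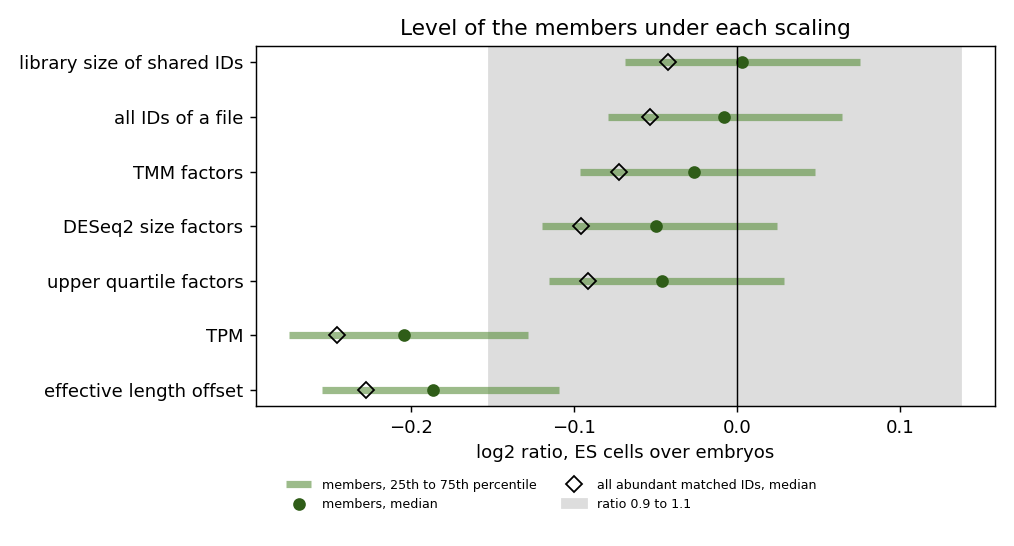
Each row is 1 scaling, and the x axis is the log2 ratio of ES cells over embryos. Dots and thick lines give the median and the 25th to 75th percentile of the 79 members, diamonds the median of the 364 matched abundant IDs, and the grey band the ratios from 0.9 to 1.1. The members' median lies at 0.00 to -0.05 in the scalings without length and at -0.20 and -0.19 in the 2 with length.

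Between libraries of a group the members varied less among ES cells than among embryos. The rule set no limit on the spread among ES cells. The median coefficient of variation was 2.55% in ES cells and 6.04% in embryos, and 68 of the 79 members varied more in embryos. The theoretical Poisson value, the inverse square root of each member's mean count, had a median of 2.15% in ES cells and 1.93% in embryos. It is not an estimate from 3 libraries, so the comparison with the observed medians is only rough. The chi-square per degree of freedom against Poisson sampling was 2.36 for the ES cell libraries and 15.5 for the embryo libraries. As a set, the members thus varied by more than counting error in both groups. They were measured in the same libraries and are not independent replicates. The 285 other matched abundant IDs had medians of 2.25% and 5.64%, and 245 of them varied more in embryos. Their chi-square per degree of freedom was 3.07 in ES cells and 349 in embryos. Their mean levels reached 18122 CPM, against 637 CPM for members. At a given coefficient of variation this statistic grows with the count, so the 2 sets are not compared like for like.

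**Figure D4:**
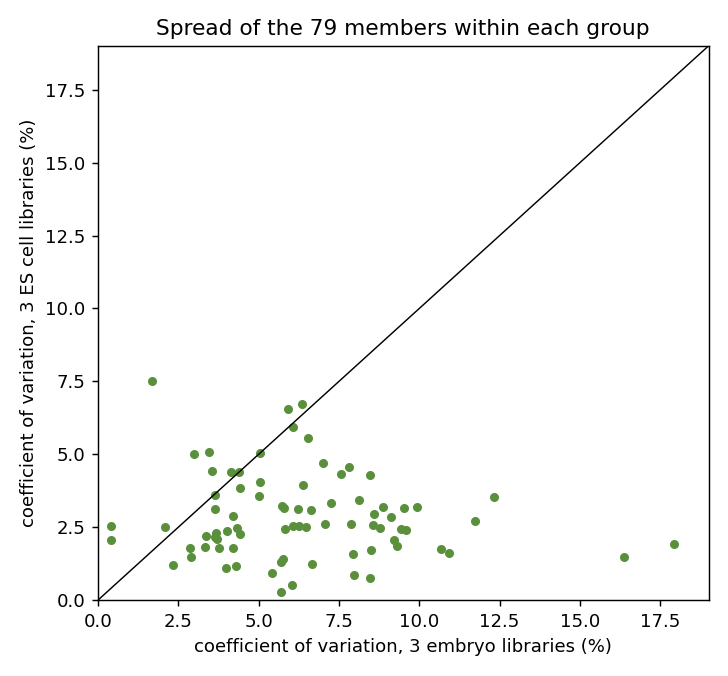
Each point is 1 of the 79 members, with the coefficient of variation over the 3 embryo libraries on the x axis and over the 3 ES cell libraries on the y axis, both in percent. The line marks equal values, and 68 points lie below it.

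The third embryo library was the low one. It held the lowest embryo value for 43 members and the highest for 3, while the first and the second held the highest for 38 each. The median deviation from the embryo mean on the log2 scale was -0.05 in the third library and 0.03 in each of the others. Among the 285 other matched abundant IDs, the third library held the lowest embryo value for 132 and the highest for 45. Their median deviation in the third library was -0.03. In that library the 10 most abundant shared IDs took 15.8% of the shared counts, against 11.6% in each of the other embryo libraries and 6.01% to 6.17% in ES cells. The part of this difference in the members' CPM was not tested. Without the third embryo library the members' median log2 ratio was -0.03, and 75 of the 79 still met the rule.

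The widest spread among embryos belonged to a member with 258, 286 and 199 CPM there, against 257, 261 and 267 CPM in ES cells. The widest spread among ES cells belonged to a member with 2 transcripts and a mean length of 7797 bases. It stood at 172, 159 and 148 CPM in ES cells and 175, 179 and 173 CPM in embryos, so the first ES cell library reached nearly to the embryo range and the last lay farthest from it.

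Small differences between ES cell libraries followed transcript length. Among the 27 shortest members, up to 2194 bases, the first ES cell library lay above the third for 6, with a median log2 ratio of -0.05. Among the 26 longest, from 3144 to 8406 bases, it lay above the third for 23, with a median of 0.04. Across the 79 members the Spearman correlation between length and this log2 ratio was 0.607. It was 0.457 for the first over the second ES cell library and 0.360 for the second over the third. These pairs share libraries, and the 79 IDs are genes of the same 6 libraries and not independent replicates.

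The embryo libraries held such a trend as well. The Spearman correlation with length was -0.481 for the second over the third embryo library, 0.335 for the first over the second and 0.001 for the first over the third. The second library lay above the third by a median of 0.12 on the log2 scale among the shortest members and 0.03 among the longest. In TPM the value for the first over the third ES cell library was 0.625. Length minus effective length had a median of 213 and 216 bases in these libraries. Effective length therefore nearly cancels in such a ratio, and TPM cannot serve as a check on the trend. The 364 matched abundant IDs gave 0.456 for the same pair in CPM.

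**Figure D5:**
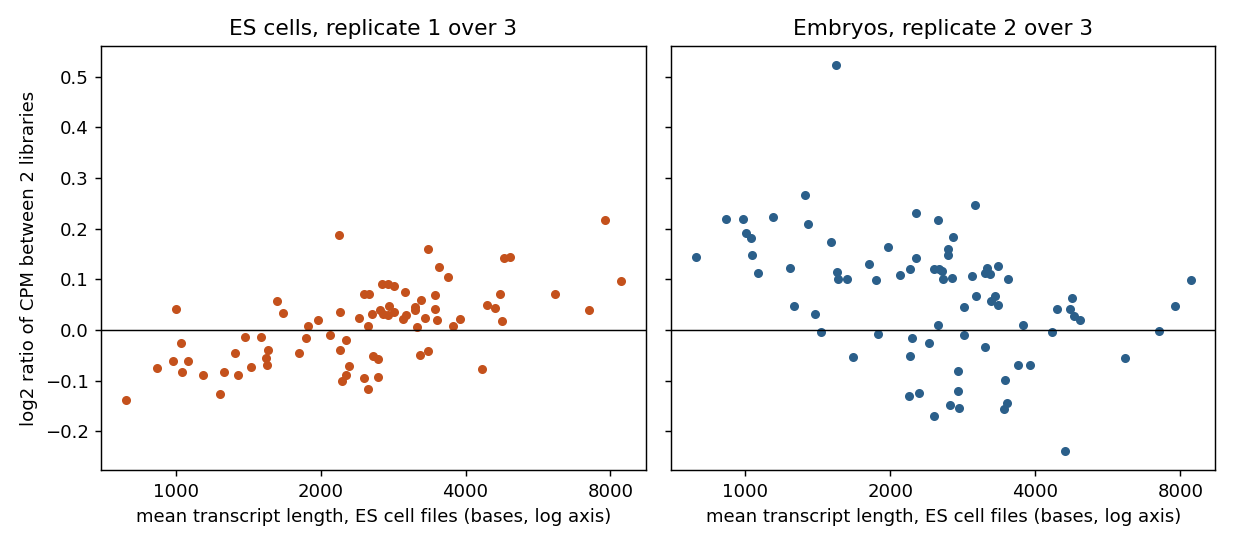
Each point is 1 of the 79 members, with mean transcript length on a log x axis in bases and the log2 ratio of CPM between 2 libraries of the same group on the y axis. In ES cells (left, replicate 1 over 3) longer members lie higher, with a Spearman correlation of 0.607, and in embryos (right, replicate 2 over 3) they lie lower, with a Spearman correlation of -0.481.

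The gene models of the members were set beside those of the 285 other matched abundant IDs, without a test. A single transcript was listed for 60 of the 79 members (75.9%) and for 75.1% of the others. The median length in the ES cell files was 2566 bases, with a range from 790 to 8406 bases, and 2712 bases for the others. The mean length was larger in the embryo files for 41 members and in the ES cell files for 19. Of these, 10 and 9 list several transcripts, so their mean length also depends on the mix of transcripts. The model was identical for 19 members (24.1%) and for 103 of the others (36.1%). Expected counts were whole numbers in all 6 libraries for 71 members (89.9%) and 87.7% of the others, within 1e-09. For the other 8 members at least 1 library held a fraction of a count, as estimated counts can when reads match several places. Whether their levels are less certain was not tested.

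Several transcripts were listed for 19 members, 12 of them with 2, 5 with 3, 1 with 4 and 1 with 6. For these the files give a mean length weighted by the estimated abundance of each transcript, which moves when the mix of transcripts moves. Within a group it hardly moved, with a median range over the 3 libraries of 0.21% in ES cells and 0.41% in embryos. Between the groups it did not overlap for 17 of the 19 (89.5%), longer in embryos for 9 and longer in ES cells for 8. The same held for 58 of the 71 other matched abundant IDs with several transcripts (81.7%). Over all tested IDs with several transcripts that met the transcript list and length limits, it held for 334 of 523 (63.9%). The differences between these shares were not tested. A different mix and a different model length in the 2 groups' files cannot be told apart here, as no length is given for each transcript of these IDs. Of the 60 members with a single transcript, where no mix exists, 19 had the same length in both groups' files.

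The member with the most transcripts, ENSGALG00000016781 with 6, had mean lengths of 3681, 3677 and 3670 bases in ES cells and 3919, 3924 and 3918 bases in embryos. Its level was 162, 164 and 151 CPM in ES cells and 154, 144 and 151 CPM in embryos, and the groups overlapped. ENSGALG00000002606, with 3 transcripts, moved most within ES cells, from 4635 bases in the first library to 4738 and 4772 in the others, beside 4947, 4986 and 4975 bases in embryos. ENSGALG00000003108, with 4 transcripts, moved most within embryos, where its mean length was 2783, 2870 and 2810 bases, against 2664, 2643 and 2676 bases in ES cells.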

How the data were processed

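Each library has 1 table with expected counts, TPM, FPKM, mean transcript length and effective length per gene ID, as the authors deposited them and per the file headers. The submitters' processing notes name FastQC, STAR, RSEM and DESeq2. A genome build is not given in the sources used here. By the file headers and sums, the deposited TPM were scaled to a fixed sum per file, while the expected counts were deposited without normalization. The deposited FPKM were not used. RNA was extracted with a column kit and sequenced with a BGISEQ-500 library protocol, per the labels' protocols.

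The 2 groups' files list different gene models, and only the 15900 shared IDs were used. Of these, 8377 had the same transcript list in both groups' files, and 5180 also met the length limit. CPM was taken over all shared IDs, and scaling factors and fits over the tested ones. Both include IDs with unlike models. The members and all comparisons were chosen with earlier results of these data known. Expected counts were rounded and fitted with edgeR 4.0.16 in R 4.3.3 (filterByExpr, TMM factors, glmQLFit, glmQLFTest, all 6 libraries, no block), with p-values adjusted over all tested IDs. The script was tested on simulated data with 200 IDs raised in ES cells and the same spread in both groups. That setting does not cover a contrast in which most IDs are called, in both directions. Standard errors and intervals come from the quasi-F statistic. The members' levels in this contrast are descriptions.

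Alternatives were other scalings, DESeq2 1.42.0, limma 3.58.1, filters, an effective length offset, a replicate block, other limits of the rule and each library left out. Deviations from the group mean correlated at 0.0181, 0.0089 and -0.0371 between libraries with the same number, and nothing in the labels pairs them, so the numbers were not treated as a pairing. IDs printed are the 10 members with the highest mean CPM, those with the smallest and largest spread in ES cells, with the ratio closest to 1 and with the most transcripts, but at most 2 of the called IDs. ENSGALG00000003108 and the member with the widest embryo spread were chosen after their values were seen. No molecular identifiers are stated, so Poisson values describe counting error only. Lists of named genes and marker genes could not be used on IDs without names, and no sequences or genome positions are given.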

Additional observations from a re-analysis of the deposited data

Results flagged for a closer look

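Abundant IDs outside the comparison were found in both file sets, and they could not be members because no value exists for the other group. Of the 8981 IDs listed only in the ES cell files, 82 had a mean of 100 CPM or more over all counts of a file. Of the 8456 IDs listed only in the embryo files, 60 did. These values stand above what a count of 0 allows, and no comparison was made with them.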

How the results depend on the processing

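The number of members, 79 as given, was 74 to 83 under the other count scalings, and 64 to 74 of the 79 were kept there. It was 46 in TPM, 19 with identical models only, 40 with lengths within 1%, 121 without a length limit, 161 for ratios from 0.8 up to its reciprocal, 39 for ratios within 0.05 of 1, 136 from 50 CPM and 25 from 200 CPM. Leaving out 1 library gave 74 to 87, and 56 of the 79 were kept in each of these 6 cases. The members' median log2 ratio, 0.0028 in CPM, was -0.0495 with DESeq2 size factors, -0.0458 with upper quartile factors, -0.20 in TPM and -0.19 with the length offset. It was -0.0336 to 0.0129 with each library left out. Members called numbered 55 with the length offset, 49 on log2(TPM + 1), 9 with library size alone and 3 at an adjusted p under 0.01, beside 84.0%, 82.2%, 84.7% and 79% of all tested IDs. With each library left out they numbered 3 to 30, beside 81.4% to 85.7% of all tested IDs. The sample numbers were not treated as a pairing, and the replicate block gave 11 members called and 9823 of all IDs. The median spread of the members in ES cells, 2.55%, was 1.93% to 2.54% with each ES cell library left out. Under the other tools, scalings and filters 9501 to 10706 of all tested IDs were called. The first is 81.8% of 11614 (DESeq2 Wald test) and the second 75.2% of 14236 (no filter). Causes were not tested, and the TPM conversion is arithmetic on the deposited values. With 3 libraries a group, differences under about the interval half-width of 0.12 on the log2 scale could not be resolved for a typical member.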
